A study of Mus musculus with 6 samples.

Results

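The ephrin, Eph, semaphorin, plexin and neuropilin genes are the cell-surface and secreted guidance families read here in mouse embryonic stem (ES) cells with or without a Prmt6 plasmid. Members were taken by gene symbol (Eph receptors of class A and B, ephrins of class A and B, every semaphorin and plexin, and Nrp1 and Nrp2), which gave 52 of the 19938 genes measured. The symbol alone decided membership. All 6 samples were HM1 cells, a mouse ES cell line, grown in GMEM with 15% serum and LIF at 1000 U/ml, a cytokine that keeps mouse ES cells undifferentiated. Every sample, controls included, was transfected with a pCAGIP.puro plasmid and held in puromycin at 1 ug/ml for 3 days. The 3 control samples carried the empty vector and the 3 overexpression samples carried mouse Prmt6 in it. Prmt6 is an arginine methyltransferase of the nucleus. RNA of each sample was read on 1 Affymetrix array. The design is thus a single cell line carrying a transfected plasmid. Whether the samples of a group were separate cultures is not stated in the labels, and the p-values cover the spread among these arrays alone, which could be technical.

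Ephrins and Eph receptors signal where cells touch. Class A ephrins are held on the membrane by a lipid anchor and class B ephrins cross it, so that a signal can run forward through the Eph receptor tyrosine kinase and back into the ephrin-bearing cell. Semaphorins signal through plexins, whose cytoplasmic part switches off small GTPases of the Ras family. Most secreted class 3 semaphorins need a neuropilin as the binding subunit beside a plexin, and neuropilins also bind vascular endothelial growth factors. The families were named for steering axons, and they also act in blood vessel growth, tissue boundaries and the early embryo.

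With the Prmt6 plasmid, 7 of the 52 genes rose, 1 fell and 44 did not pass. The rises were those of the ephrins Efna5 (1.95-fold) and Efnb1 (1.41-fold), both neuropilins, Nrp1 (1.77-fold) and Nrp2 (1.52-fold), the semaphorins Sema3c (1.70-fold) and Sema4c (1.39-fold), and the receptor Ephb4 (1.27-fold). Epha2, a receptor kinase of epithelia and early embryonic cells, was the fall (1.24-fold lower). Passing means a Benjamini-Hochberg adjusted p under 0.05 over all 19938 genes by limma, a linear model with moderated variances, two-sided, n = 3 arrays per group. Of all genes 10.3% were called in either direction, beside these 8 of 52. The rises make up 13.5% of the members, where 7.05% of all genes rose, and the fall makes up 1.92%, where 3.25% of all genes fell. All overexpression arrays were above all controls in 13 members, 25.0% against 17.0% of all genes. They were all below in 4 members, 7.69% against 12.7% of all genes, and the groups overlapped in the other 35. The median change of the members was 0.018 on the log2 scale, beside 0.00 over all genes, so that most members lay near no change. Among all called genes 68.5% were rises, a share that was 80.4% with arrays centred on their medians and 50.4% under quantile normalization. The members called were 7 higher and 0 lower with centring, and 7 higher and 1 lower with quantile normalization.

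**Figure D1:**
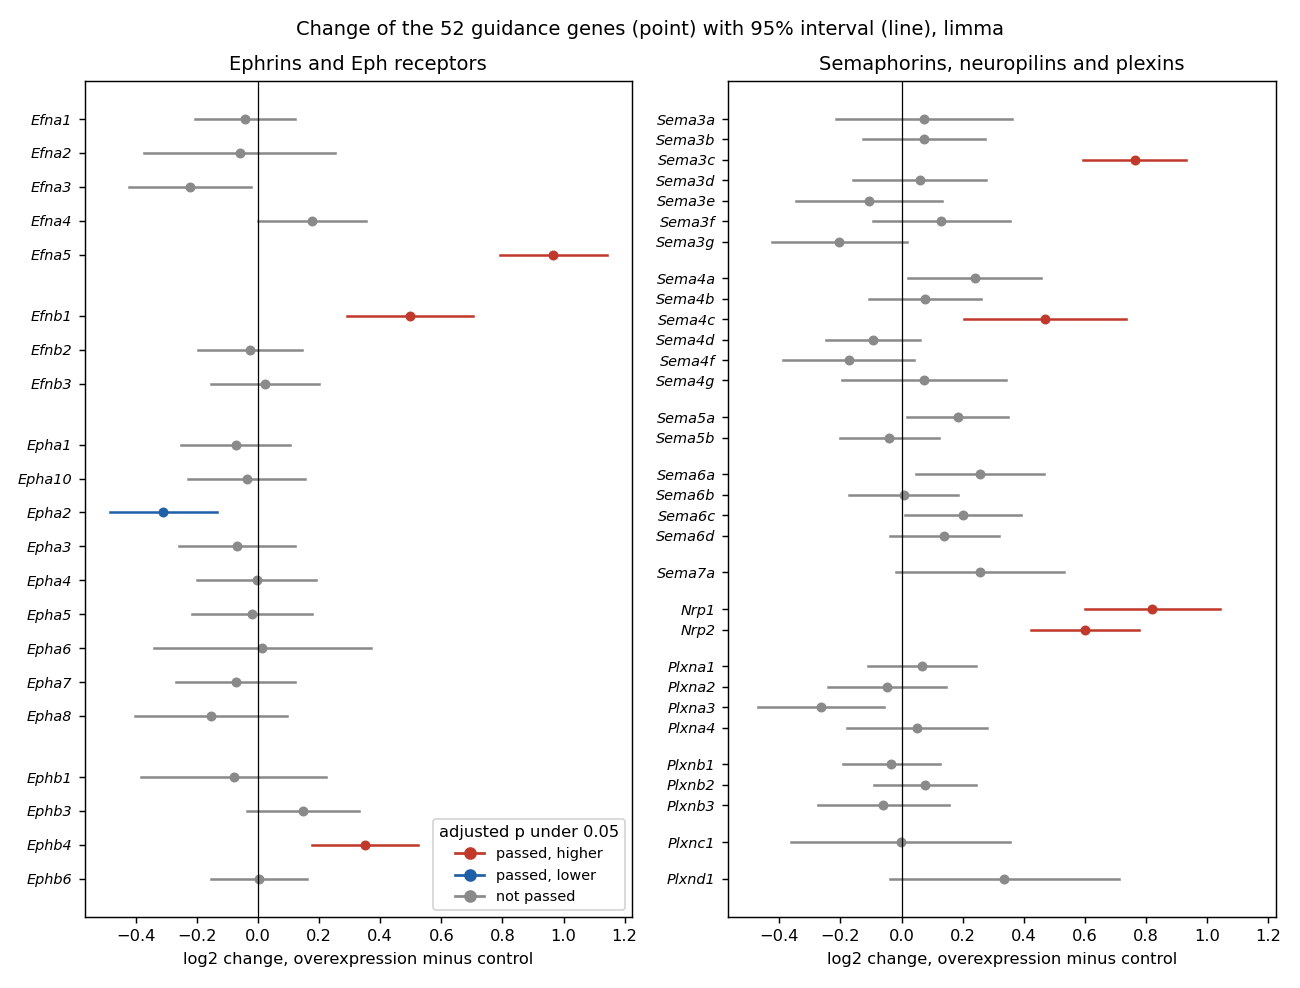
Log2 change (overexpression minus control) of each of the 52 guidance genes, ordered by class, with the 95% interval of the change from limma (n = 3 arrays per group). Red points passed upward (7 genes), blue downward (1 gene) and grey points did not pass; the largest change is that of Efna5 at 0.97.

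A log2 change near 0 in a gene that did not pass is not proof of equal levels, so its 95% interval is of use. In 43 of the 44 members that did not pass, that interval lay wholly within a 1.5-fold change in either direction. The exception was the plexin gene Plxnd1. Because the array gives each probe set its own brightness, log2 signals are compared between samples and not between genes. In bulk RNA, fewer cells that make a transcript and less of it per cell cannot be told apart.

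Differences in level and quality between arrays can bear on any of the results. Array medians were between 5.60 and 5.62 (log2) in control and between 5.54 and 5.59 in overexpression. Over all probe sets, Pearson r lay between 0.991 and 0.992 among control arrays and between 0.986 and 0.990 among overexpression arrays, and from 0.980 to 0.987 across the groups. Probe sets are not independent replicates. Prmt6 itself was read at 6.84, 6.58 and 7.12 (log2) in control and at 7.32, 7.40 and 7.33 in overexpression, a change of 0.50 ± 0.13 (SE, limma adjusted p = 0.0406) that passed without control replicate 3 and did not pass without any other 1 array (highest adjusted p = 0.119).

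Among the ephrins, the ligands of Eph receptors, 2 of 8 rose and 6 did not pass. Efna5 encodes ephrin-A5, a class A ligand that sets repulsive borders in neural maps. Its log2 signal was 5.74, 5.84 and 5.64 in control and 6.74, 6.70 and 6.68 in overexpression. Every overexpression array lay well above the highest control array, and the overexpression arrays were closer to each other (SD 0.031) than the controls were (SD 0.10). The change was 0.97 ± 0.077 (log2, SE), with a limma adjusted p of 0.000113, the largest change among the 52 members.

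The other class A ephrins did not share this rise. Efna1, Efna3 and Efna4 stand next to each other in the genome with no protein-coding gene between them, and none of the 3 passed. Efna3 was read at 6.15, 6.22 and 5.95 in control and 5.85, 5.94 and 5.86 in overexpression, all of the latter below the controls, with a change of -0.22 (95% interval -0.42 to -0.023, limma adjusted p = 0.158). Its neighbour Efna4 leaned the other way, at 7.29, 7.18 and 7.21 against 7.38, 7.33 and 7.5, with the groups apart and a change of 0.18 (limma adjusted p = 0.201). Efna1 changed by -0.043 and Efna2 by -0.06 with overlapping groups. In a test of the genes above the median level Efna3 passed (limma adjusted p = 0.0494).

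Efnb1, on the X chromosome, encodes ephrin-B1, a transmembrane ligand of EphB receptors with a part in craniofacial borders. It was read at 6.35, 6.32 and 6.13 in control and 6.88, 6.73 and 6.68 in overexpression. The lowest overexpression array stood above the highest control array. The rise was 0.50 ± 0.090 (log2, SE, limma adjusted p = 0.00990). The other class B ephrins stayed near no change: Efnb2, the arterial ligand of Ephb4, was at 7.44, 7.48 and 7.39 against 7.47, 7.32 and 7.44, a change of -0.027 (95% interval -0.20 to 0.14). That of Efnb3 was 0.023. The sign of the Efnb2 value turned with arrays centred on their medians, at 0.02.

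**Figure D2:**
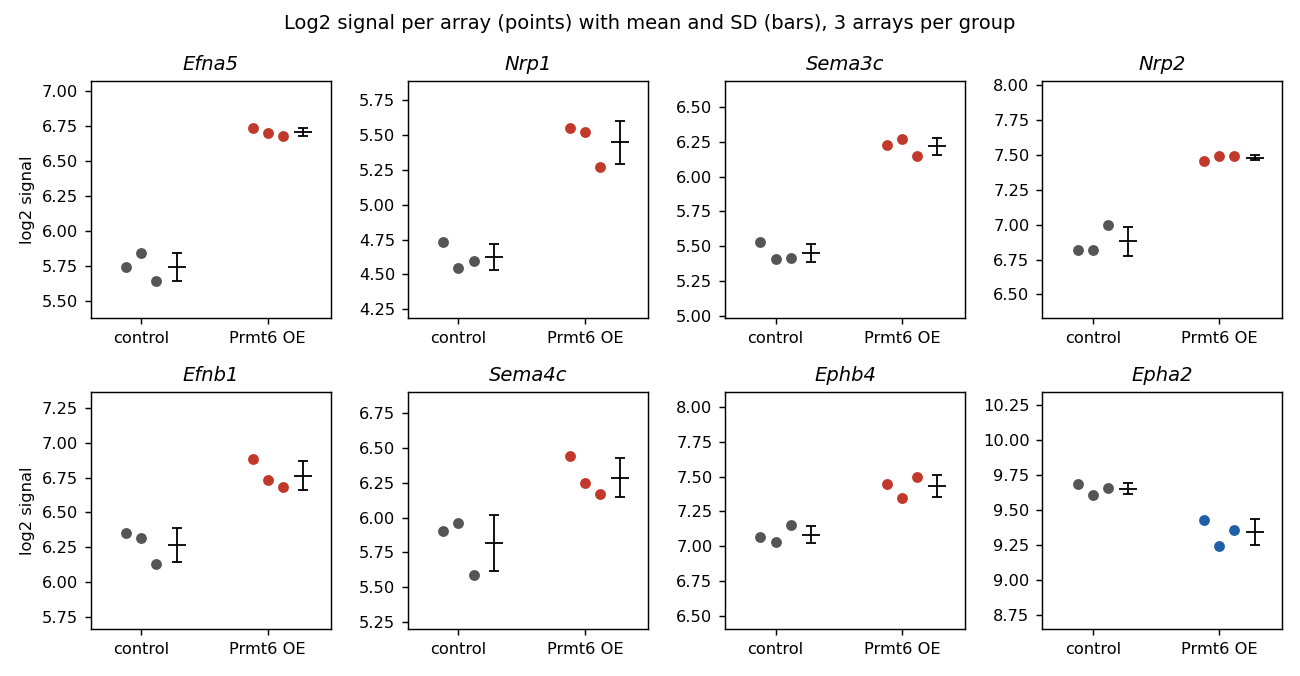
Log2 signal of the 8 members that passed, in each of the 3 control arrays (grey) and 3 overexpression arrays (coloured), with the group mean and SD drawn beside the points; the vertical span is the same in each panel. In all 8 panels the groups do not overlap, and Epha2 is the panel with the overexpression arrays below.

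Of the 13 Eph receptors, Ephb4 rose, Epha2 fell and 11 did not pass. Ephb4, a receptor of venous endothelium that binds ephrin-B2, was read at 7.07, 7.03 and 7.15 in control and 7.45, 7.35 and 7.5 in overexpression. No overexpression array was as low as a control array. The rise was 0.35 ± 0.075 (log2, SE, limma adjusted p = 0.0216). The call ended without control replicate 1 (limma adjusted p = 0.0868), control replicate 2 (0.0907) or overexpression replicate 3 (0.0562).

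Epha2 was read at 9.69, 9.61 and 9.66 in control and 9.43, 9.24 and 9.36 in overexpression. Its overexpression arrays were all below the controls, while the change itself was small, -0.31 ± 0.077 (log2, SE, limma adjusted p = 0.0382). This call ended without control replicate 1 (limma adjusted p = 0.140), 2 (0.0907) or 3 (0.124), without overexpression replicate 2 (0.117) or 3 (0.0688), and with arrays centred on their medians (0.0722). Epha2 is a receptor for class A ephrins, the class to which Efna5 belongs.

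The other 8 EphA genes had changes between -0.15 and 0.013, with 0 passing. Epha8 had the largest of them, at 5.51, 5.53 and 5.32 against 5.11, 5.31 and 5.48, a change of -0.15 with overlapping groups (limma adjusted p = 0.446). Epha4, a receptor that binds ephrins of both classes, was at 7.70, 7.69 and 7.72 in control and 7.86, 7.62 and 7.62 in overexpression, so that its groups overlapped with nearly equal means. Among the EphB genes, Ephb3, a receptor of intestinal crypts, was at 6.92, 7.08 and 7.12 against 7.16, 7.25 and 7.15. Its overexpression arrays were above the controls, but the change of 0.15 did not pass (limma adjusted p = 0.312). The change was -0.08 for Ephb1 and 0.0033 for Ephb6, whose kinase domain is inactive. The other probe set of Ephb1 gave 0.013, so that its probe sets differ in sign without either passing. The 2 probe sets of Epha10 gave -0.037 and -0.11.

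In the semaphorin branch, the secreted ligand Sema3c and both neuropilins rose. Of the 9 plexins 0 passed, beside 10.3% of all genes called in either direction, too few genes for a contrast. Sema3c is a class 3 semaphorin of heart outflow and vessel patterning that binds Nrp1 and Nrp2. It was read at 5.53, 5.41 and 5.42 in control and 6.23, 6.27 and 6.15 in overexpression. The spread within each group was small beside the gap between the groups (SD 0.067 and 0.061). The rise was 0.76 ± 0.074 (log2, SE, limma adjusted p = 0.000359).

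Sema3c was the 1 class 3 semaphorin of 7 to pass. The changes of the other 6 lay between -0.20 (Sema3g) and 0.13 (Sema3f), and the groups overlapped in all of them. Sema3g, an endothelial semaphorin, was at 5.55, 5.53 and 5.29 in control and 5.13, 5.32 and 5.31 in overexpression (limma adjusted p = 0.242). Sema3a, the class member best known for collapsing axon tips through Nrp1, was at 4.26, 3.94 and 3.82 against 3.91, 4.19 and 4.14, with no separation of the groups. For Sema3f, a ligand of Nrp2, the change of 0.13 had a 95% interval from -0.094 to 0.35. Sema3e, which can bind Plxnd1 without a neuropilin, changed by -0.11.

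Nrp1 was read at 4.73, 4.55 and 4.6 in control and 5.55, 5.52 and 5.27 in overexpression. The lowest overexpression array, replicate 3, was still above the highest control array. The rise was 0.82 ± 0.096 (log2, SE, limma adjusted p = 0.00108). Its paralogue Nrp2 was read at 6.82, 6.82 and 7.0 in control and 7.46, 7.49 and 7.49 in overexpression, the overexpression arrays almost equal to each other (SD 0.017). It rose by 0.60 ± 0.077 (log2, SE, limma adjusted p = 0.00173). The calls of Nrp1, Nrp2, Sema3c, Efna5 and Efnb1 held without any 1 of the 6 arrays and in the other alternatives that kept them, with limma adjusted p no higher than 0.00781, 0.0123, 0.00309, 0.00153 and 0.0410. The filters on level used the mean over all 6 arrays. Nrp1 (control mean 4.63, overexpression mean 5.45) stayed above the 30th percentile (4.85) only through its overexpression arrays. So did Efna5 (5.74 and 6.71) above the median (5.87). Sema4c likewise had a control mean of 5.82, under that median, and an overexpression mean of 6.29. Those filtered calls are no separate support for these genes.

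Promoter windows of the 4 largest rises are shown because these genes rose in the same arrays. Each runs from 250 bases before to 50 bases after an annotated gene start (RefSeq, GRCm38.p6), 5′ to 3′ on the strand of the gene. Of the 52 members, 46 had a window that was counted, 60 windows in all. Member windows on an excluded chromosome were left out of these counts, whereas the windows of all genes included that chromosome. Capitals mark the GC box GGGCGG, the core that Sp1 family factors bind, or its reverse complement CCGCCC.

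Efna5 (chr17:62881268-62881567, minus strand): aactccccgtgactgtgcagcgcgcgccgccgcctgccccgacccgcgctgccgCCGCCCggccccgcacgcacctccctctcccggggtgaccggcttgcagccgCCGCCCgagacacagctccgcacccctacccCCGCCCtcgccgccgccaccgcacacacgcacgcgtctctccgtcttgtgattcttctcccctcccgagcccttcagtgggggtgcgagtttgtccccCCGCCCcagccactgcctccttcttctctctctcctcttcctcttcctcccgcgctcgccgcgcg

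Nrp1 (chr8:128358823-128359122, plus strand): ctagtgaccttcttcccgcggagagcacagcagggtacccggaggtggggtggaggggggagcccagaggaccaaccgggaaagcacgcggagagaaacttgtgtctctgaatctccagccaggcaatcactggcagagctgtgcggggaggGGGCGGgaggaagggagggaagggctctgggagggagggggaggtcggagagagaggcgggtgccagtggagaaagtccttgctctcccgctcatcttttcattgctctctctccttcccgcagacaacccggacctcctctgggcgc

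Sema3c (chr5:17574566-17574865, plus strand): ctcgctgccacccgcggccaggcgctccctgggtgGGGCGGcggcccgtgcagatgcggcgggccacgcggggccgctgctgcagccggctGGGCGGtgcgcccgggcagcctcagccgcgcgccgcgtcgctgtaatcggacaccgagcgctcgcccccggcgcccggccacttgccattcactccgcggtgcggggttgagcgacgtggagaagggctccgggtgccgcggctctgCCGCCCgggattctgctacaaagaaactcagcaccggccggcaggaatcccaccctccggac

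Nrp2 (chr1:62703067-62703366, plus strand): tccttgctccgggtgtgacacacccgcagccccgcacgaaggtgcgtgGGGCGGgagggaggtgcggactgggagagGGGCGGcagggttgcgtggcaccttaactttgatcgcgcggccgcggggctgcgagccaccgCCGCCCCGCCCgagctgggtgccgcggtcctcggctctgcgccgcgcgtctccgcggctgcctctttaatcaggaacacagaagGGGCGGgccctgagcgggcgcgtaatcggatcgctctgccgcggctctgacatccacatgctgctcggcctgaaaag

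The GC box was found 4 times in the Efna5 window, 1 time in that of Nrp1, 3 times in that of Sema3c and 5 times in that of Nrp2, where 2 of the matches overlap by 1 base. On either strand it was present in 46 of the 60 member windows (76.7%) and in 35.7% of all 32851 windows of the same length in the table. In the windows of the 7 genes that rose it was present in 7 of 8, Sema4c having 2 windows and Efnb1 being the gene without a match. The TEAD core GGAATG was present in 0 of these 8 windows, in 11.7% of the 60 member windows and in 14.7% of all windows. The E-box CACGTG was also present in 0 of the 8 (6.67% of member windows, 7.15% of all). So was the TATA box TATAAA (1.67% of member windows, 13.6% of all). The AP-1 site TGANTCA was present in 1 of the 8, a window of Sema4c (5% of member windows, 7.81% of all). Counts in 8 windows do not set the genes that rose apart from the other members. None of these motifs holds another. A match is a run of letters and not a measured site, and these windows were not measured in the experiment.

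The membrane-bound semaphorins of classes 4 to 7 numbered 13, of which Sema4c rose and 12 did not pass. Sema4c crosses the membrane and binds Plxnb2. It was read at 5.90, 5.96 and 5.59 in control and 6.44, 6.25 and 6.17 in overexpression. The overexpression arrays were above all controls, with control replicate 3 lying below the other 2 controls. The rise was 0.47 ± 0.12 (log2, SE, limma adjusted p = 0.0379), but it did not pass when control replicate 1 (0.0783), control replicate 3 (0.108), overexpression replicate 1 (0.0999) or overexpression replicate 2 (0.0915) was left out.

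Several further membrane semaphorins had overexpression arrays above the controls without passing. Sema4a, a ligand also found on immune cells, was at 5.67, 5.62 and 5.48 in control and 5.68, 5.84 and 5.97 in overexpression, a change of 0.24 (limma adjusted p = 0.162). Sema5a, which carries thrombospondin repeats, was at 4.75, 4.63 and 4.62 against 4.80, 4.87 and 4.88, a change of 0.18 (limma adjusted p = 0.163). Sema6a, a ligand of class A plexins, was at 7.09, 7.10 and 7.24 against 7.56, 7.33 and 7.31, a change of 0.26 (limma adjusted p = 0.122). Sema6c, of the same class, was at 5.73, 5.87 and 5.74 against 5.97, 6.09 and 5.88, a change of 0.20 (limma adjusted p = 0.182). In these 4 genes the groups did not overlap, though in Sema4a the nearest arrays were at 5.67 and 5.68. Of the 13 membrane semaphorins, 5 had all overexpression arrays above all controls, beside 17.0% of all genes. All were below in 1 of the 13, beside 12.7% of all genes. Sema6a passed in a pair of alternatives, a variance prior that was trended and robust (limma adjusted p = 0.0472) and a test of the genes above the median level (0.0335). Sema7a, which has a lipid anchor and signals through an integrin, was at 5.65, 5.85 and 5.42 against 5.83, 6.05 and 5.81, a change of 0.26 with overlapping groups (limma adjusted p = 0.234).

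All 4 class 6 genes had changes above 0, from 0.0067 (Sema6b) to 0.26 (Sema6a), with 0 passing by limma at the adjusted threshold and 2 at an unadjusted p under 0.05. Of all 19938 genes, 4889 had an unadjusted limma p under 0.05, so this count is not a sign of a change in the class. The 2 probe sets of Sema6b held identical values in every array, so they are not separate measurements. Sema4d, the ligand of Plxnb1, was at 6.57, 6.55 and 6.60 against 6.44, 6.47 and 6.53, below every control without passing, a change of -0.093 (limma adjusted p = 0.459). Its other probe set gave -0.18, in the same direction. Sema4b changed by 0.077 and Sema4f by -0.17.

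The plexins, the signalling receptors of the semaphorins, gave 0 calls among 9 genes by limma at the adjusted threshold. Of all genes 10.3% were called in either direction, so 0 of 9 does not set the plexins apart. An unadjusted p under 0.05 was found for 1 of them, Plxna3, beside 4889 of all 19938 genes. Plxna3 was read at 6.35, 6.21 and 6.36 in control and 5.90, 6.06 and 6.17 in overexpression, lower in every overexpression array. The change was -0.26 (95% interval -0.47 to -0.056, limma adjusted p = 0.112), and it passed in a test of the genes above the median level (0.0291). Plxna1, a partner of neuropilins in binding class 3 semaphorins, was at 8.64, 8.59 and 8.54 against 8.76, 8.58 and 8.63, with overlapping groups. Its change of 0.067 had a 95% interval from -0.11 to 0.24.

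Plxnd1, the plexin of endothelial cells, was at 5.41, 5.32 and 4.85 in control and 5.29, 5.55 and 5.75 in overexpression. Its arrays overlapped and were widely spread (SD 0.30 and 0.23). The change was 0.34 (95% interval -0.039 to 0.71, limma adjusted p = 0.256), the widest interval among the 52 members. Plxnb2, the receptor of Sema4c, was at 7.62, 7.58 and 7.59 against 7.72, 7.72 and 7.58, a change of 0.077 (limma adjusted p = 0.583). Plxnc1, a receptor for Sema7a, was at 4.55, 4.69 and 4.91 against 5.01, 4.39 and 4.74, a change of -0.0033 whose sign turned with centring (0.043) and with quantile normalization (0.015). Thus the members that rose on the receiving side of the semaphorin branch were the 2 neuropilins.

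By role, 4 of 28 ligands rose and 0 fell, and 3 of 24 receptors rose and 1 fell. Of all genes 7.05% rose and 3.25% fell, and counts this small do not set the roles apart. The median log2 change was 0.073 over the ligands and -0.012 over the receptors. No test was made of the difference between these roles. The within-group SD of single members ran from 0.015 to 0.33 on the log2 scale, with a median of 0.093 in control and 0.10 in overexpression, beside 0.082 and 0.12 over all genes.

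**Figure D3:**
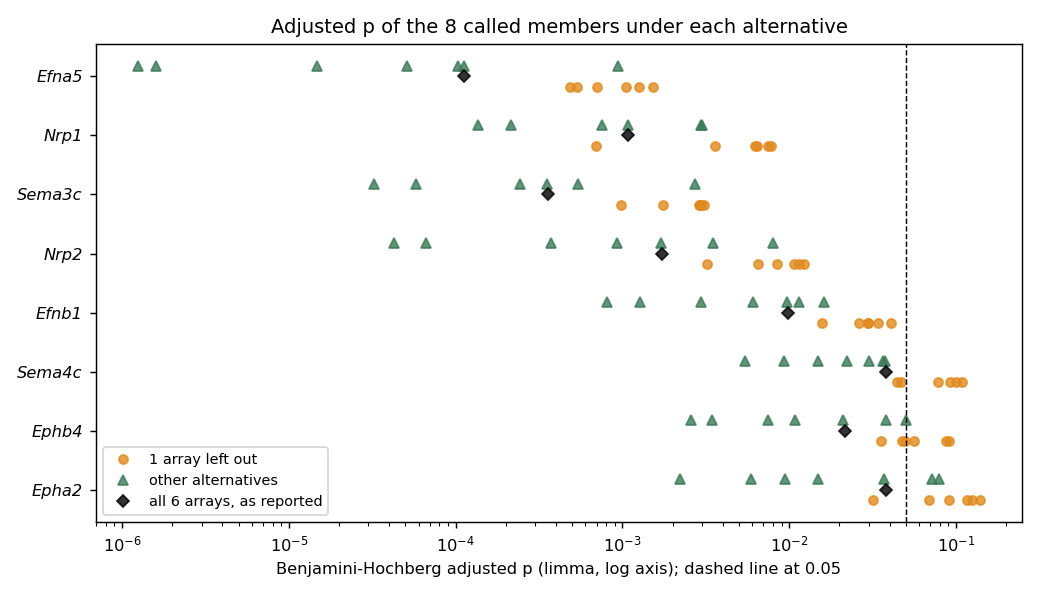
Benjamini-Hochberg adjusted p (log axis) from limma for the 8 members that passed, with all 6 arrays (diamond), with 1 array left out (circles) and under the other alternatives (triangles); the dashed line marks 0.05. Points of Efna5, Nrp1, Sema3c, Nrp2 and Efnb1 all lie left of the line, while some points of Sema4c, Ephb4 and Epha2 lie right of it.

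Beyond the families, 3 lists of guidance genes give the surrounding pathway. Of the 26 measured signalling partners of Eph receptors and ephrins, 5 rose, 0 fell and 21 did not pass, where 7.05% of all genes rose and 3.25% fell. The median log2 change was 0.078, beside 0.00 over all genes. Src, a kinase recruited by class B ephrins, was read at 7.31, 7.36 and 7.24 in control and 7.90, 7.81 and 7.95 in overexpression, a rise of 0.58 ± 0.074 (log2, SE, limma adjusted p = 0.00168). Ryk, a receptor without kinase activity that associates with Eph receptors and binds Wnt ligands, rose by 0.58 ± 0.075. Adam10, the membrane protease that cuts ephrins, went from 6.83, 6.77 and 6.85 to 7.43, 7.40 and 7.28, a rise of 0.55 ± 0.074 (limma adjusted p = 0.00210).

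In these 3 partner genes no overexpression array was as low as a control array. Arhgef5, an exchange factor of the ephexin family, rose by 0.56 ± 0.12, and its call ended without control replicate 2 (limma adjusted p = 0.0537) or 3 (0.0725). Sdcbp, a scaffold for the tails of class B ephrins, rose by 0.33 ± 0.068, and its call was lost when any control array or overexpression replicate 2 was left out (0.0550 to 0.0762). The list had 3 rises without control replicate 2 and 8 with arrays centred on their medians.

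Of the 31 measured signalling partners of semaphorins and plexins, 7 rose, 0 fell and 24 did not pass, again beside 7.05% rises and 3.25% falls over all genes. The list's median log2 change was 0.12, that of all genes 0.00. The largest rises were in Farp1, an exchange factor with a FERM domain, and Rras, a small GTPase that plexins switch off. Farp1 was read at 6.11, 6.17 and 5.94 in control and 7.37, 7.20 and 7.16 in overexpression (1.17 ± 0.092, log2, SE, limma adjusted p = 0.000103). Rras was read at 7.58, 7.71 and 7.65 in control and 8.91, 8.75 and 8.75 in overexpression (1.16 ± 0.079, limma adjusted p = 4.79e-05). For both genes the distance between the groups was several times the spread within them.

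Itgb1, the integrin subunit through which Sema7a signals and which many other matrix receptors share, rose by 0.83 ± 0.087, and Rras2, a relative of Rras, by 0.78 ± 0.070. Dpysl2, a cytoplasmic mediator of the response to Sema3a, rose by 0.73 ± 0.088. Mical1, a plexin-bound enzyme that oxidizes actin, rose by 0.41 ± 0.090, and Rap1b, a GTPase that plexins switch off, by 0.36 ± 0.071. The Mical1 call ended when any array other than overexpression replicate 2 was left out (limma adjusted p from 0.0503 to 0.0928) and that of Rap1b without control replicate 1, 2 or 3 (0.0526 to 0.0592). Sdcbp, Dpysl2, Mical1 and Rap1b lie outside the rule for named genes and were named after their values were seen.

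**Figure D4:**
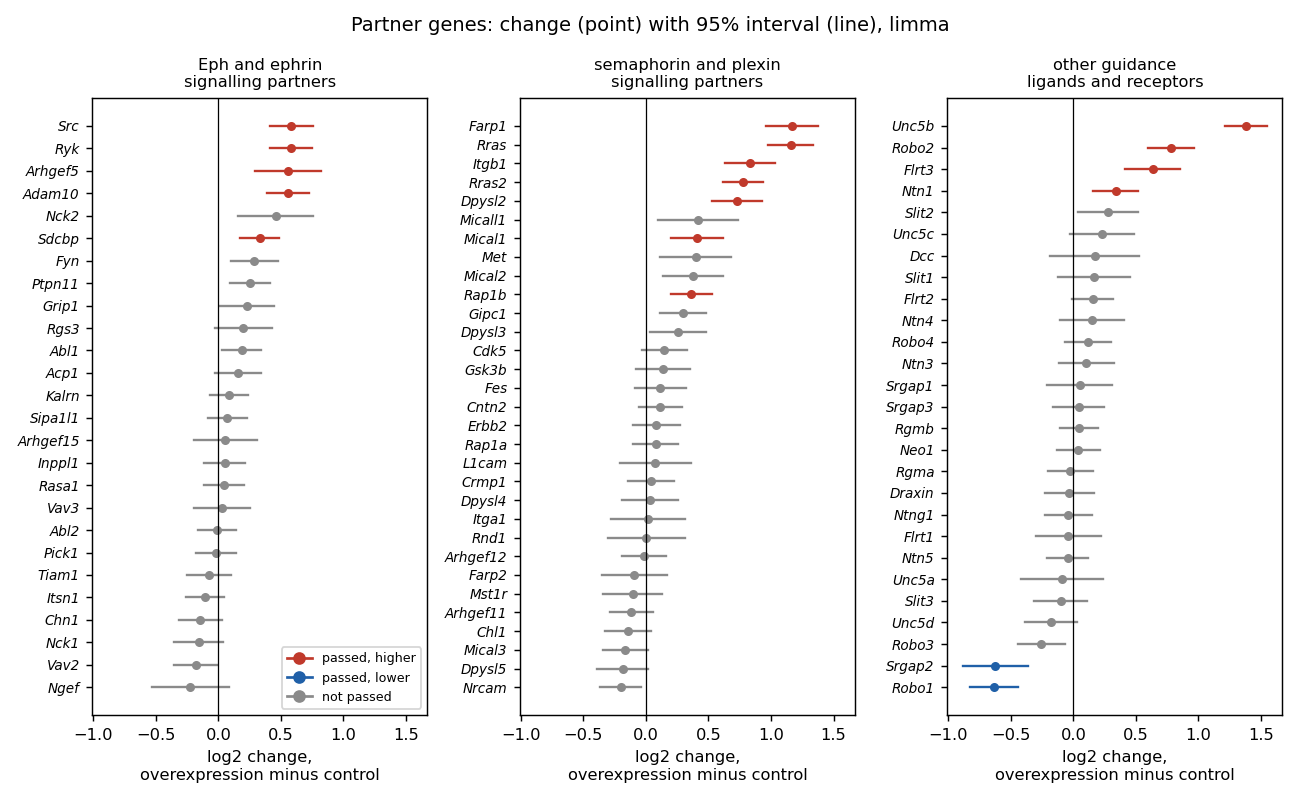
Log2 change (overexpression minus control) with 95% interval from limma for every measured gene of the 3 partner lists, sorted within each list (n = 3 arrays per group). Coloured points passed: 5 and 7 rises with 0 falls in the signalling lists, and 4 rises with 2 falls, Robo1 and Srgap2, among other guidance ligands and receptors.

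Among the 27 measured ligands, receptors and adaptors of the Slit, netrin and FLRT systems, 4 rose, 2 fell and 21 did not pass, against all-gene shares of 7.05% for rises and 3.25% for falls. Their median log2 change was 0.043 (0.00 over all genes). Unc5b, a netrin receptor of vessels and neurons, went from 6.71, 6.86 and 6.75 in control to 8.21, 8.12 and 8.13 in overexpression. This change of 1.38 ± 0.074 (log2, SE, limma adjusted p = 1.12e-05) was larger than that of any of the 52 members. Its ligands Ntn1 and Flrt3 rose by 0.34 ± 0.078 and 0.63 ± 0.096. The Ntn1 call ended when any array other than control replicate 2 was left out (limma adjusted p from 0.0568 to 0.119).

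The Slit receptors moved apart. Robo2 went from 4.81, 4.67 and 4.71 to 5.49, 5.43 and 5.61, a rise of 0.78 ± 0.080 (log2, SE, limma adjusted p = 0.000479). Robo1 went from 7.58, 7.80 and 7.67 to 7.13, 7.0 and 7.02, a fall of 0.63 on the log2 scale (limma adjusted p = 0.00192). Srgap2, a GTPase-activating protein that acts below Robo receptors, was at 8.04, 8.17 and 8.20 in control and 7.75, 7.48 and 7.31 in overexpression. Its change was -0.62 ± 0.11 (limma adjusted p = 0.0104). Each of these 3 genes kept its call without any 1 array.

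Guidance genes are made by many cell types, so markers of other cells were read in the same arrays. Beside every marker count that follows, 7.05% of all genes rose and 3.25% fell. The 12 ES cell markers, Pou5f1 and Nanog among them, were read at log2 signals of 7.97 or more in every array. Of these, Nanog, Sox2 and Tdgf1 fell, by 0.34, 0.29 and 0.35 on the log2 scale (limma adjusted p = 0.0153, 0.0485 and 0.0183), and 9 did not pass. The alternatives were not read for any marker gene, and the Sox2 value lies close to the threshold. Their summed linear signal ran from 21911.9 to 22935.2 in control and from 21858.2 to 22041.7 in overexpression. Of 12 endothelial markers, Flt1 rose by 1.22, Tek fell by 0.70 on the log2 scale, and 10 did not pass, Cdh5 (0.00) and Pecam1 (-0.067) among them. Their summed signal ran from 744.5 to 789.7 in control and from 739.0 to 783.8 in overexpression, a sum in which the rise of Flt1 and the fall of Tek enter with opposite signs.

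Of 11 simple epithelial markers, 7 rose and 4 did not pass, with a summed signal from 3563.8 to 3661.8 in control and from 11056.4 to 12208.1 in overexpression. Each sum is weighted to its brightest probe sets and does not measure a share of cells. The mean of Krt8 went from 9.06 to 11.95 (log2) and that of Krt18 from 8.23 to 11.45. Epcam, Esrp1, Grhl2 and Elf3 were the 4 that did not pass. Of 11 fibroblast markers, 6 rose and 5 did not pass, with sums from 542.2 to 572.6 and from 792.9 to 887.1. Of 11 neural markers, Nes (limma adjusted p = 0.0474, close to the threshold), Tubb3 and Ncam1 rose and 8 did not pass. Their sums ran from 1733.2 to 1792.0 and from 2009.3 to 2222.3. The brightest neural marker was Stmn2, with means of 10.07 and 10.27 (log2), which did not pass. Of 7 neural crest markers Ets1 rose and 6 did not pass, with sums from 488.3 to 518.9 and from 580.4 to 649.8. Of 9 macrophage and blood markers, Csf1r and Cd68 rose and 7 did not pass, with sums from 762.7 to 806.3 and from 821.5 to 911.5. These arrays give no detection calls, so no marker can be said to be at 0. The part of these marker changes in the rises of the guidance genes was not tested.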

How the data were processed

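Values are those the authors deposited: log2 signals to 2 decimals for 35556 probe sets, made by robust multi-array average (RMA) per the submitters' processing notes. RMA corrects background, equalizes array distributions and summarizes probes, so a change shared by most genes is largely removed. The deposited values were still not fully level. Array medians lay at 5.60 to 5.62 in control and at 5.54 to 5.59 in overexpression. Rises were 68.5% of the calls as deposited and 50.4% after a further quantile normalization. Its version and settings were not given in the sources used here. Of the probe sets, 21789 carried 1 symbol in the platform annotation, 1621 carried several and 12146 none. A gene with several single-symbol probe sets was read from the one of highest mean. Of the single-symbol probe sets, 21698 matched GRCm38.p6 genes by identifier, with 0 symbols changed. Sequences came from RefSeq.

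All 19938 genes were fitted with limma 3.58.1 in R 4.3.3 (lmFit, eBayes), without covariates or a filter on dim genes. Changes are overexpression minus control ± SE. The number of arrays limits the precision. The fit was tested in 5 runs on simulated data of 19938 genes, with noise drawn independently for each gene at its spread in this comparison. In each run 50 genes were changed at each of the log2 sizes 0.3, 0.5, 1 and 2. The fit recovered 42.4% of changes of 0.5 and 85.6% of those of 1, with 3.79% of its calls false. In the data 10.3% of genes were called, a far larger share than was changed in the simulation. The adjusted threshold differs with that share, so these rates hold for the simulation alone.

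Named were all members that passed, the largest change without passing in each class, up to 4 passing genes per direction from each partner list, and Prmt6. Members named beside these were chosen after their values were seen. The members and lists were chosen with earlier results of these data known. Alternatives were centring, quantile normalization, 2 filters, probe set means, another variance prior, a replicate block and leaving out each array. The filters used the mean of a gene over the arrays of both groups. Figures were drawn with matplotlib 3.10.9.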

Additional observations from a re-analysis of the deposited data

How the results depend on the processing

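The arrays number 3 per group, and no detection calls were used. The self-test, in which far fewer genes changed than were called in the data, recovered 3.6% of log2 changes of 0.3. Over all genes, falls numbered 647 as reported, 990 and 1079 with genes under the 30th percentile (log2 4.85) and under the median (5.87) left out, 1115 with the trended variance prior, 1245 under quantile normalization, 383 with the replicate block and 280 to 763 with 1 array left out. Rises numbered 1405 as reported and 862 to 1232 with 1 array left out.

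The count of members that rose stayed between 5 and 8 in all 13 alternatives, and the members' median change stayed between 0.0067 and 0.072. The filtered counts include genes whose control mean lay under the filter, Nrp1 at the 30th percentile and Efna5 and Sema4c at the median. Those counts are no separate support for these genes. The count of members that fell was 1 as reported, 0 with centring, 0 with the replicate block, 3 with genes under the median left out (24 members kept, Sema3c and Nrp1 not among them) and 0 to 1 with 1 array left out. Alternatives for the partner lists were added after the data were seen. Rises among Eph and ephrin partners numbered 5 as reported, 8 with centring, 8 with the 30th percentile filter, 9 with the median filter, 8 with the trended prior and 3 to 6 with 1 array left out. Those among semaphorin and plexin partners numbered 7 as reported and 11 with the median filter or the trended prior. Rises among the other guidance genes numbered 4 as reported and 2 with the median filter, which kept 7 genes.

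No named gene that passed changed sign in any of the 13 alternatives that kept it, but most of these could not turn a sign. The filters, the variance prior and the replicate block leave the change itself as it was. In these genes the groups did not overlap, so leaving out 1 array cannot turn the sign either. The steady sign is thus no separate support under those alternatives. Among genes that did not pass, the sign turned for Efnb2 with centring (0.02) and without overexpression replicate 2, with values from -0.057 to 0.018 when 1 array was left out. It turned for Plxnc1 with centring (0.043), with quantile normalization (0.015), and without control replicate 3 or overexpression replicate 2, with values from -0.15 to 0.16 when 1 array was left out. The cause was not tested.

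Deviations from the group means of same-numbered arrays correlated at -0.019, -0.016 and -0.117. Those of arrays with different numbers correlated from -0.1 to 0.114. With so few arrays these values cannot decide whether the replicate numbers paired the arrays. With the replicate number as a block, 6 members rose and 0 fell. Ephb4 (limma adjusted p = 0.050, at the threshold) and Epha2 (0.0787) no longer passed, nor did Ntn1 (0.0848), Sdcbp (0.0649), Mical1 (0.0656) and Prmt6 (0.0615). Prmt6 also did not pass under quantile normalization (0.0633).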

Other observations

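Neuropilins also serve as co-receptors of the vascular endothelial growth factors, and the 8 measured genes of that ligand and receptor family were read for that reason, after the other values were seen. Flt1, the decoy and signalling receptor VEGFR1, was read at 5.13, 5.51 and 5.70 (log2) in control and 6.76, 6.58 and 6.67 in overexpression, a rise of 1.22 ± 0.14 (SE, limma adjusted p = 0.000829). Pgf, a ligand that binds Flt1 and neuropilins, went from 5.06, 5.29 and 5.16 to 5.77, 5.70 and 5.76, a rise of 0.57 ± 0.081 (limma adjusted p = 0.00279). Vegfc, a ligand that binds Nrp2, went the other way, from 7.27, 7.27 and 7.32 to 6.76, 6.85 and 6.82, a change of -0.48 ± 0.068 (limma adjusted p = 0.00302).

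In these 3 genes the groups did not overlap. The other 5 did not pass, Vegfa at 0.093, Kdr at -0.14 and Flt4 at 0.033 among them. The family thus held 2 rises and 1 fall of 8, where 7.05% of all genes rose and 3.25% fell. Counts among 8 genes do not set it apart. Flt1 and Kdr were already counted among the endothelial markers. The alternatives were not run for these genes.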
